A study of Mus musculus with 7 samples.

Results

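Integrins and laminins, the receptors and the ligands of cell attachment to the basement membrane, were followed in mouse 3T3-L1 adipocytes that had differentiated in the presence of an inhibitor of stearoyl-CoA desaturase (SCD), the enzyme that makes monounsaturated fatty acids. Members were chosen by gene symbol alone: Itga, Itgb, Lama, Lamb or Lamc followed by a number, or Itgav, Itgal, Itgam, Itgax, Itgad or Itgae. Of 18820 genes with a symbol of their own on the array, 39 met this rule. They comprise 18 integrin alpha subunits, 9 integrin beta subunits, 10 laminin chains, and the genes Itgb1bp1 and Itgb1bp2, which encode proteins that bind integrin beta tails and are no subunits themselves. Where a gene had several array rows, the row with the highest mean stood for it, which among the members concerned Itgb1 alone.

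The inhibitor group held 3 arrays from cultures given 1 µM of a commercial SCD inhibitor, which the sources used here do not name. The DMSO group held 4 arrays from cultures given the same volume of the solvent. Every culture was the 3T3-L1 line, a mouse fibroblast line that can turn into fat cells, induced for 2 days with isobutylmethylxanthine, dexamethasone and human insulin and then kept in insulin until RNA was taken on day 7. The line is a single clone, no other cell type is labelled, and the cells are labelled pre-adipocytes although they had been induced. Nothing in the labels tells whether the replicates were grown as separate cultures, so each p-value reflects the scatter of these 7 arrays alone, and that scatter may be technical.

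An integrin is a pair of an alpha and a beta subunit that spans the plasma membrane, binds matrix or other cells outside and, through its beta tail, binds adaptor proteins linked to actin inside. A laminin is a cross-shaped trimer of an alpha, a beta and a gamma chain, and laminins form the sheet on which the basement membrane is built. Adipocytes are wrapped in such a membrane in fat tissue, and differentiating pre-adipocytes replace a fibroblast matrix rich in fibronectin with one rich in laminin and type IV collagen.

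Values are log2 expression levels made with RMA, so a difference of 1 is a doubling, and genes with an adjusted p under 0.05 in limma, over all 18820 genes, are the ones called higher or lower. Levels of different genes come from different probes and are not set against each other. In this fit 8.00% of all genes were called, 3.62% higher and 4.37% lower with the inhibitor. The total of 1505 called genes was 980 without DMSO replicate 4 and 949 without SCD inhibitor replicate 3. The share of higher genes among the calls was 45.3%, and it was 55.7% with each array centred on its median and 55% without SCD inhibitor replicate 1. Both arrays numbered 1 carried the lowest array weights, 0.499 for SCD inhibitor replicate 1 and 0.583 for DMSO replicate 1, so results are also given without them where a call changed. The 7 adipocyte markers did not pass, and their mean log2 level was 11.97 to 12.02 on the inhibitor arrays and 11.96 to 12.00 on the DMSO arrays. Marker lists of macrophages (6 genes), lymphocytes (3) and endothelial cells (4) had no called gene, and their mean log2 levels lay between 3.49 and 4.37 on every array. With 7 arrays from whole cultures, fewer cells of a type and less RNA per cell cannot be told apart.

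Of the 39 members 5 passed the test, 12.8% against 8.00% of all genes. Lamb3, a laminin beta chain, and Itga7, a laminin-binding integrin alpha subunit, fell. Itgb1, the beta subunit shared by most matrix-binding integrins, Itgb2, the leukocyte beta subunit, and Itgb1bp1 rose. The decreases were 2.25-fold for Lamb3 and 1.71-fold for Itga7, while no increase exceeded 1.19-fold. The number called was 3 without DMSO replicate 2, DMSO replicate 3, SCD inhibitor replicate 2 or SCD inhibitor replicate 3, since in those fits Itgb1 and Itgb1bp1 did not pass, and 8 after centring or a further quantile normalization. The median log2 difference over all members was 0.0107, beside -0.0037 over all genes, and the median absolute difference was 0.043, beside 0.045. The typical member thus moved about as far as the typical gene. In 8 members the inhibitor and DMSO groups did not overlap, beside 17.3% of all genes. In 6 of these the inhibitor arrays lay above, beside 8.30% of all genes, and in 2 they lay below, beside 9.02%.

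**Figure D1:**
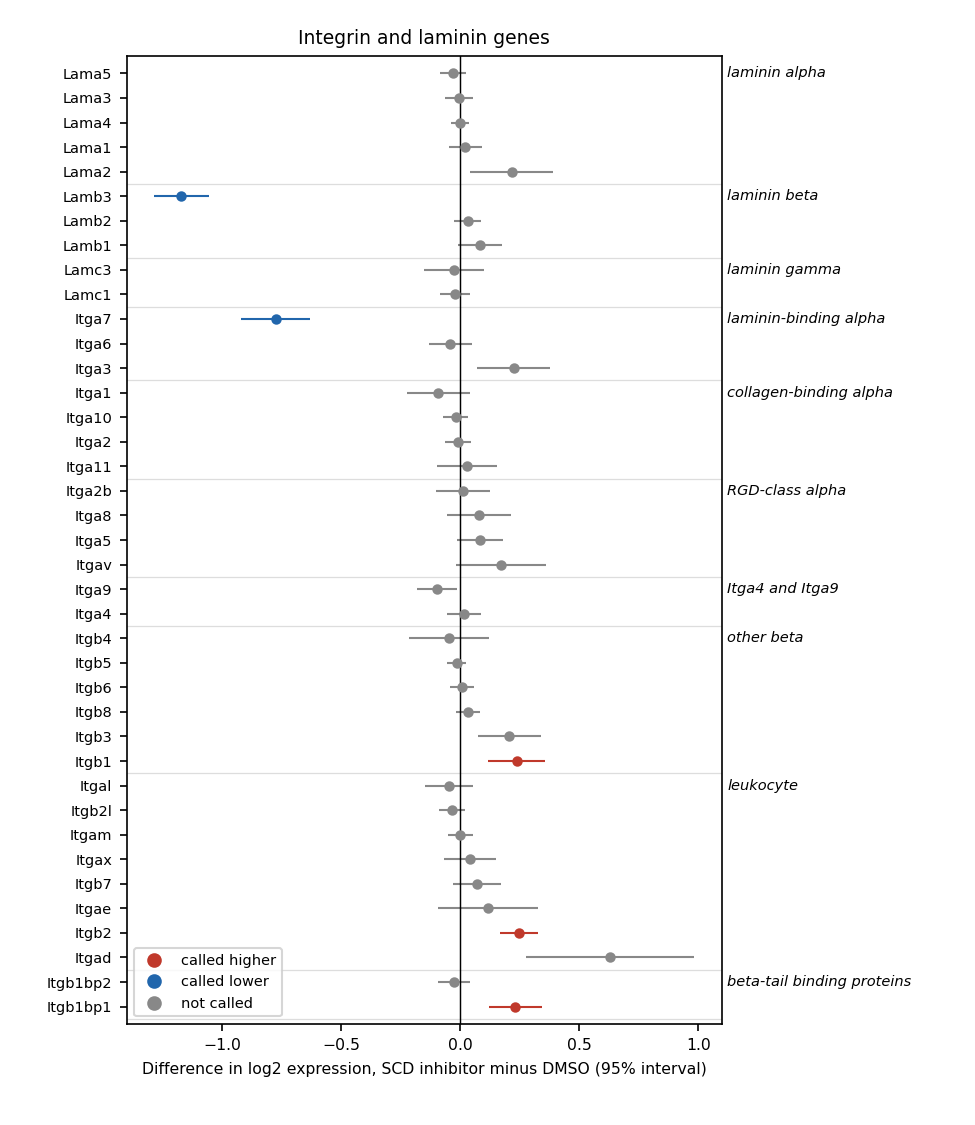
Difference in log2 expression (SCD inhibitor minus DMSO, n = 3 and 4) of the 39 members, ordered by role, with 95% intervals from limma; red, blue and grey mark genes called higher, called lower and not called. Lamb3 (-1.17) and Itga7 (-0.78) stand far to the left, and 28 of the 39 members lie within 0.1 of zero.

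Before the values, the genomic stretches in front of the start sites of Lamb3 and Itgb1 are shown. They were picked because these called members share a motif, and they moved in opposite directions. Both carry the letters GGAATG, the core bound by TEAD factors, before an annotated start, which for Lamb3 is not the start shown. Each sequence gives the 250 bases that precede a start site (RefSeq, GRCm38.p6, both on the plus strand), and capitals mark matches to any of the 4 motifs searched on both strands. Lamb3 is at chr1:193301744-193301993 and Itgb1 at chr8:128685404-128685653.
Lamb3: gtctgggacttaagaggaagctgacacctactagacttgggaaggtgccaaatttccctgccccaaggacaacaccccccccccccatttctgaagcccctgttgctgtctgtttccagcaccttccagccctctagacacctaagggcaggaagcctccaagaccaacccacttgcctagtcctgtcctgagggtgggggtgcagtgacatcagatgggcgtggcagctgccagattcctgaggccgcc
Itgb1: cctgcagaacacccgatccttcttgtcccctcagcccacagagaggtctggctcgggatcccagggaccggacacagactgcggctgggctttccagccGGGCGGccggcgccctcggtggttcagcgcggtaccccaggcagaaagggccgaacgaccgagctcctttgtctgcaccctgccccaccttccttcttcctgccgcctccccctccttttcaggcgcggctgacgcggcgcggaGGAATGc

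The motifs were TGANTCA (AP-1), GGAATG (TEAD), GGGCGG (Sp1 GC box) and CACGTG (E-box). The Itgb1 stretch holds a GGGCGG and, next to the start, a GGAATG. The Lamb3 stretch printed holds none of the 4, and its GGAATG lies in the window of the other annotated Lamb3 start, 249 bases further on, which is not printed. The stretch of Itgb1bp1, also called higher, holds none of the 4 either. No promoter sequence was at hand for the called members Itga7 and Itgb2. Promoter sequences were at hand for 25 members, in 28 windows. Counting a member where any of its windows held the motif, 3 held GGAATG, 8 held GGGCGG, 1 held TGANTCA and 0 held CACGTG. Over 32851 mouse promoter windows of the same length the shares were 12.6% for GGAATG, 32.7% for GGGCGG, 6.75% for TGANTCA and 6.02% for CACGTG. Those shares count single windows and not genes, so the units differ. These matches are letters in a window and were not tested as binding sites.

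Among the laminins, 1 of 10 chains passed, 10% beside 8.00% of all genes. Lamb3 encodes the beta chain of the laminin that anchors epithelia, in which the product of Lama3 is the alpha chain. It read 6.11, 6.002 and 6.10 on the inhibitor arrays, against 7.29, 7.22, 7.15 and 7.31 on the DMSO arrays. Every inhibitor array thus lay more than 1 log2 unit below every DMSO array. The log2 difference was -1.17 (SE 0.049, 95% interval -1.29 to -1.06, adjusted p = 5.98e-05 in limma), and Lamb3 passed in all 16 alternative fits. Lama3, the alpha chain of the same trimer, had the value 4.12 on all 4 DMSO arrays and 4.07, 4.16 and 4.12 on the inhibitor arrays, and its difference of -0.00 had an interval of -0.06 to 0.05. The same value stood on 5 arrays and no detection calls were used. Whether Lama3 was expressed at these low values is therefore not stated, and the row cannot show that this chain stayed the same. Lamb3 is known as an epithelial gene, so the epithelial markers are given beside it. Of 4 such markers, Krt18, a keratin of simple epithelia, fell by 1.04 (SE 0.052, adjusted p = 1.08e-04 in limma), while Krt8 (log2 -0.14), Cdh1 (0.03) and Epcam (0.03) did not pass. The summed linear level of the 4 markers was 127.9 to 141.2 on the inhibitor arrays and 179.7 to 187.3 on the DMSO arrays. Of the 4, Krt18 alone had groups that did not overlap, so the sum does not show a shift of the whole list. The part of these markers in the result for Lamb3 was not tested.

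The other laminin chains did not pass. Lama4, Lamb1 and Lamc1 encode the chains of a mesenchymal and vascular laminin. Lama4 read 10.10, 10.10 and 10.09 on the inhibitor arrays, against 10.10, 10.11, 10.10 and 10.09 on the DMSO arrays, with an interval of the difference of -0.04 to 0.03. Lamc1 had a log2 difference of -0.02 (interval -0.09 to 0.04) and Lamb1 one of 0.08 (interval -0.01 to 0.17). Lama2, the alpha chain of muscle and nerve basement membranes, read 4.67, 4.93 and 4.89 on the inhibitor arrays, against 4.50, 4.65, 4.63 and 4.67 on the DMSO arrays, and the lowest inhibitor array coincided with the highest DMSO array. Its difference of 0.22 had an adjusted p of 0.146 in limma, and it passed without SCD inhibitor replicate 1 (adjusted p = 0.0344), without both arrays numbered 1 (0.0139), with centring (0.0185) and with a further quantile normalization (0.0476). Lama1 (0.02), Lama5 (-0.03), Lamb2 (0.03) and Lamc3 (-0.03) had differences no larger than 0.03 in size.

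Of the 3 laminin-binding integrin alpha subunits, Itga7 fell, Itga3 did not pass and Itga6 did not pass. Itga7, best known as the laminin receptor of skeletal muscle, read 7.52, 7.51 and 7.32 on the inhibitor arrays, against 8.21, 8.15, 8.28 and 8.27 on the DMSO arrays. The groups were wide apart compared with the spread inside each. Its log2 difference was -0.78 (SE 0.060, 95% interval -0.92 to -0.63, adjusted p = 6.8e-04 in limma) and it passed in all 16 alternatives. Itga7 overlaps Mettl7b, a methyltransferase-like gene, in RefSeq, and Mettl7b fell too (log2 -1.16, SE 0.15, adjusted p = 0.00539 in limma, 0.0654 without both arrays numbered 1). Mettl7b read 5.72, 6.29 and 5.93 on the inhibitor arrays, against 7.09, 7.17, 6.95 and 7.35 on the DMSO arrays. Whether the probes of the 2 genes read any shared transcript was not tested.

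Itga6, the alpha subunit known to replace Itga5 as pre-adipocytes mature, read 11.12, 11.22 and 11.26 on the inhibitor arrays, against 11.24, 11.22, 11.29 and 11.22 on the DMSO arrays. The groups overlapped, and the difference of -0.04 had an interval of -0.13 to 0.05. Itga3, a receptor for epithelial laminins, read 4.972, 4.899 and 4.798 on the inhibitor arrays, against 4.73, 4.67, 4.74 and 4.52 on the DMSO arrays. These groups did not overlap, but the difference of 0.23 (SE 0.064) had an adjusted p of 0.0976 in limma and passed in none of its 15 alternatives. Itga3 and Itga7 therefore had differences of opposite sign, and the difference between them was not tested. Itgb4, the beta subunit that joins Itga6 in epithelial hemidesmosomes, had a difference of -0.05 (interval -0.21 to 0.12).

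Integrin alpha subunits for collagen and for fibronectin did not pass. The 4 collagen receptors had log2 differences from -0.09 (Itga1) to 0.03 (Itga11), with Itga2 and Itga10 between them. Of the 4 subunits of the class that recognises the RGD peptide of fibronectin and vitronectin, Itga5, the classical fibronectin receptor, read 9.31, 9.39 and 9.26 on the inhibitor arrays, against 9.27, 9.16, 9.25 and 9.26 on the DMSO arrays. The groups overlapped, with the lowest inhibitor array (9.26) below the highest DMSO array (9.27), and the difference of 0.08 had an interval of -0.01 to 0.18. Itgav, which pairs with several beta subunits, had the widest difference of this class (0.17, interval -0.02 to 0.36, adjusted p = 0.278 in limma). Itga8, whose product binds nephronectin, had 0.08 and the platelet subunit Itga2b had 0.01. Itga4, a receptor for Vcam1 and fibronectin, had 0.01 and the related Itga9 had -0.10 (adjusted p = 0.179 in limma).

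Of the 6 beta subunits outside the leukocyte group, Itgb1 rose and the others did not pass. Itgb1, the partner of the laminin, collagen and fibronectin receptors above, read 10.18, 10.26 and 10.30 on the inhibitor arrays, against 10.10, 9.92, 9.97 and 10.05 on the DMSO arrays. The lowest inhibitor array stood 0.08 above the highest DMSO array. Its log2 difference was 0.24 (SE 0.051, 95% interval 0.12 to 0.36, adjusted p = 0.037 in limma). The call ended without DMSO replicate 2 (adjusted p = 0.0799), DMSO replicate 3 (0.11), DMSO replicate 4 (0.0821), SCD inhibitor replicate 1 (0.0529), SCD inhibitor replicate 2 (0.122) or SCD inhibitor replicate 3 (0.131), and without both arrays numbered 1 (0.0546). It also ended with the replicate number as a block (0.163). A second array row for Itgb1 had means of 5.92 with the inhibitor and 5.79 in DMSO with overlapping groups, and averaging the rows ended the call (adjusted p = 0.0881).

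Itgb3, the beta subunit of the vitronectin receptor, read 6.80, 6.94 and 6.97 on the inhibitor arrays, against 6.70, 6.78, 6.60 and 6.71 on the DMSO arrays. The groups stood apart by a narrow gap. The difference of 0.21 (SE 0.056, adjusted p = 0.0803 in limma) did not pass, and did without SCD inhibitor replicate 1 (0.049), with centring (0.0107), with a further quantile normalization (0.026) and with the dimmest 50% of genes dropped (0.0342). Itgb5, the other vitronectin receptor subunit and a receptor known in adipose cells, had a difference of -0.01 with an interval of -0.05 to 0.02. Itgb6 and Itgb8, which can release active TGF-beta, had 0.01 and 0.03.

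Of the 2 beta-tail binding proteins, Itgb1bp1 rose. Its product binds the tail of the Itgb1 subunit and is known to counter talin, which activates integrins. It read 6.89, 6.94 and 6.99 on the inhibitor arrays, against 6.67, 6.67, 6.68 and 6.82 on the DMSO arrays, so that DMSO replicate 4 lay closest to the inhibitor group. The log2 difference was 0.23 (SE 0.046, adjusted p = 0.0285 in limma). It passed without DMSO replicate 4 (0.0097), and did not pass without DMSO replicate 1 (0.0847), DMSO replicate 2 (0.0846), DMSO replicate 3 (0.0889), SCD inhibitor replicate 1 (0.0506), SCD inhibitor replicate 2 (0.096), SCD inhibitor replicate 3 (0.104) or both arrays numbered 1 (0.123). An array row that carries the symbols of both Asap2 and Itgb1bp1 had means of 7.62 with the inhibitor and 7.70 in DMSO, with overlapping groups. Itgb1bp2, a muscle protein also called melusin, had a difference of -0.03.

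In the leukocyte group 1 of 8 subunits passed, 12.5% beside 8.00% of all genes. Itgb2, the beta subunit of the leukocyte adhesion receptors, read 4.29, 4.43 and 4.36 on the inhibitor arrays, against 4.10, 4.11, 4.11 and 4.12 on the DMSO arrays. The DMSO arrays lay within 0.03 of each other and every inhibitor array was above them. The difference was 0.25 (SE 0.033, adjusted p = 0.00642 in limma), and the call held in 14 of 15 alternatives, among them each fit without a single array. Itgad, an alpha partner of Itgb2 on macrophages, showed the largest positive difference of the 39 members, 0.63 (SE 0.15), without passing (adjusted p = 0.0515 in limma). It read 5.25, 5.40 and 5.78 on the inhibitor arrays, against 4.78, 4.63, 5.03 and 4.94 on the DMSO arrays, apart but widely scattered within both groups. It passed with centring (0.00712), a further quantile normalization (0.0178), the dimmest 25% of genes dropped (0.0315), trend and robust options (0.0406) and array weights (0.0428), and in no fit without a single array. It also passed with the replicate number as a block (0.0403).

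The other alpha partners of Itgb2 did not pass. Itgam had a difference of -0.00, Itgax 0.04 and Itgal, the lymphocyte subunit, -0.05, while Itgae (0.12) and Itgb7 (0.07), which pair in lymphocytes of epithelia, and Itgb2l (-0.03) did not pass either. None of the 6 macrophage markers passed in limma, where 1 (Lyz2) had an unadjusted p under 0.05. Ptprc, the pan-leukocyte phosphatase, had a log2 difference of 0.00, Adgre1 0.01, Csf1r 0.02, Mrc1 -0.01 and Cd68 -0.09. Lyz2, lysozyme, had -0.33 (adjusted p = 0.146 in limma), with every inhibitor array below every DMSO array. The summed linear level of the 6 macrophage markers was 147.9 to 156.5 on the inhibitor arrays and 158.3 to 170.2 on the DMSO arrays. Of the 6, Lyz2 alone had groups that did not overlap, so this sum does not show a shift of the whole list either. Itgad overlaps Cox6a2, a cytochrome oxidase subunit, in RefSeq, and Cox6a2 moved the other way (log2 -0.71, SE 0.12, adjusted p = 0.0163 in limma). Its call ended without DMSO replicate 1 (0.0553), DMSO replicate 2 (0.0511), DMSO replicate 3 (0.0585), SCD inhibitor replicate 1 (0.0536), SCD inhibitor replicate 2 (0.0506) and both arrays numbered 1 (0.13). No detection calls were used here, so whether Itgb2 or Itgad was expressed at these low values is not stated.

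**Figure D2:**
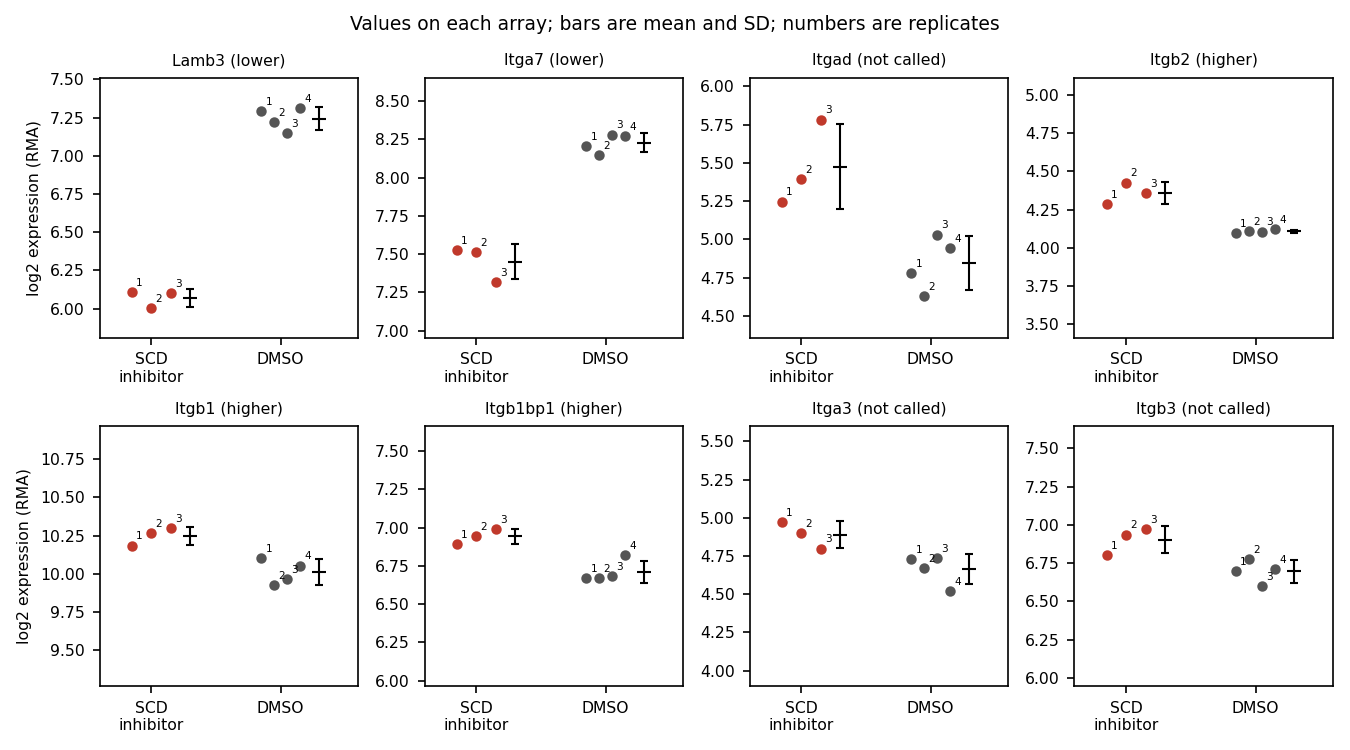
Log2 expression (RMA) on each array for the 8 members with an adjusted p under 0.1, inhibitor arrays in red and DMSO arrays in grey, with the replicate number beside each point and the mean and SD at the right of each group; every panel spans the same range on its axis. Lamb3 and Itga7 show the widest gaps, Itgb2 the tightest DMSO group, and Itgad the widest scatter.

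The fits that ended or gave a call are compared in the plot of adjusted p by setting. Lamb3 and Itga7 stayed below 0.05 throughout, with adjusted p from 1.3e-06 to 0.0111 and from 7.58e-05 to 0.0354. Itgb2 did so in 14 of 15 alternatives, Itgb1bp1 in 9 of 16 and Itgb1 in 7 of 16.

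**Figure D3:**
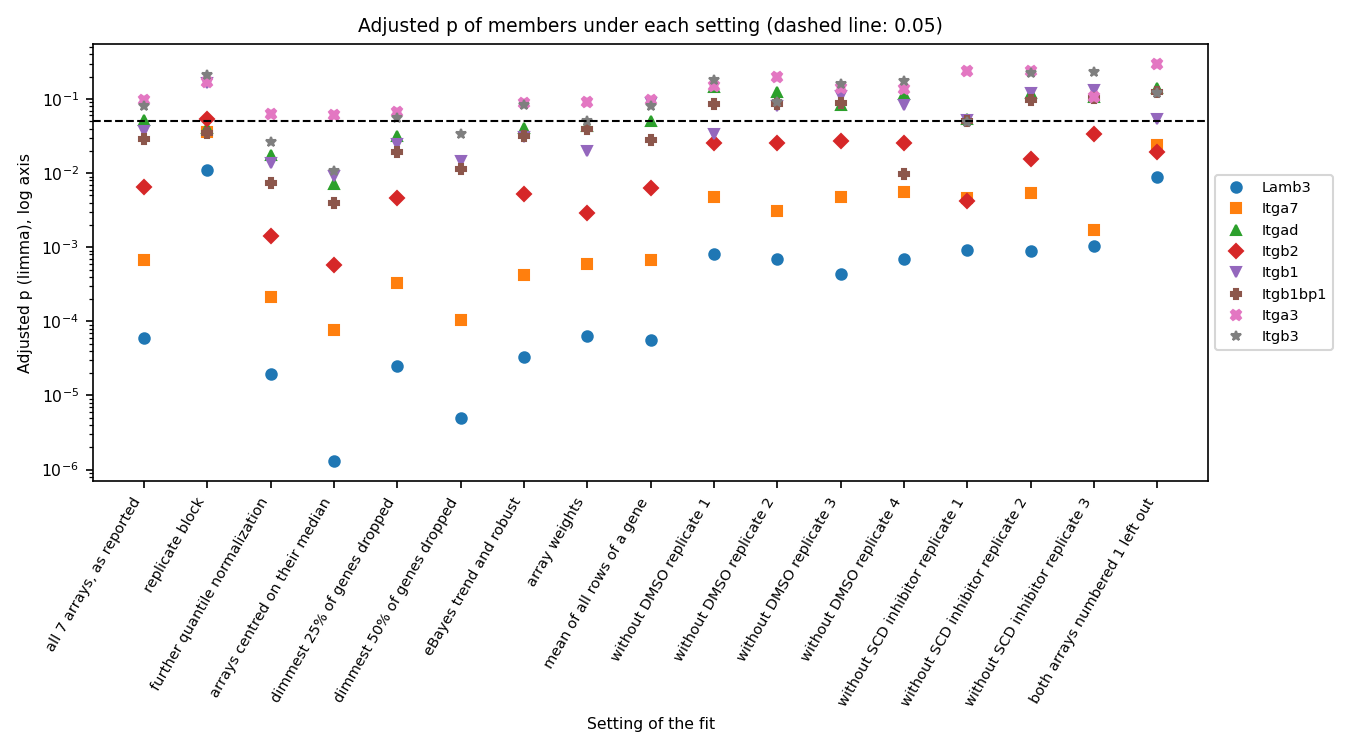
Adjusted p in limma (log axis) of the 8 members with an adjusted p under 0.1, in the fit of all 7 arrays and in each alternative that kept the gene; the dashed line is at 0.05. Lamb3 (circles) and Itga7 (squares) lie below the line in every setting, while Itgb1 and Itgb1bp1 cross it when single arrays are left out.

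Partners of laminin in the basement membrane were examined next. Of 15 measured genes 4 rose, 26.7% against 8.00% of all genes, and 11 did not pass. This list and those below were chosen with earlier results of these data known, so their shares are no test against all genes. The share of all genes also depends on dim genes: with the dimmest 50% dropped, 1989 of 9410 genes passed. Agrn, which encodes agrin, a proteoglycan that binds laminin, read 8.00, 8.00 and 7.97 on the inhibitor arrays, against 7.40, 7.66, 7.52 and 7.56 on the DMSO arrays. Its log2 difference was 0.45 (SE 0.058, adjusted p = 0.00528 in limma) and it passed in all 16 alternatives. Col15a1, a collagen at the outer face of the membrane, rose by 0.35, and the type IV collagen chains Col4a1 and Col4a2, the other sheet-forming component, rose by 0.25 and 0.16. Without both arrays numbered 1 the adjusted p was 0.0702 for Col15a1, 0.0537 for Col4a1 and 0.0855 for Col4a2. With the replicate number as a block it was 0.0889 for Col15a1, 0.0696 for Col4a1 and 0.0779 for Col4a2. Col4a2 also lost its call without DMSO replicate 3 (0.0674) or 4 (0.075) or SCD inhibitor replicate 1 (0.0782), 2 (0.0726) or 3 (0.075). Nid1, which links laminin to type IV collagen, had 0.11 (adjusted p = 0.1 in limma), Hspg2, which encodes perlecan, 0.16 (0.163) and Dag1, the laminin receptor dystroglycan, 0.05. Col18a1, a basement membrane collagen, had -0.21 (adjusted p = 0.0762 in limma), with every inhibitor array below every DMSO array, and Bcam, a laminin receptor of the immunoglobulin family, had -0.14 (0.308). The median difference of the list was 0.017.

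Of the 15 measured ligands of integrins other than laminins 7 rose, 3 fell and 5 did not pass. Thus 66.7% were called against 8.00% of all genes, in a list chosen with earlier results of these data known. The median log2 difference of the list was 0.11. Thbs1, thrombospondin, a ligand of several integrins, rose by 0.60 (SE 0.060, adjusted p = 0.002 in limma), with 10.80, 10.77 and 10.74 on the inhibitor arrays, against 10.29, 10.14, 10.03 and 10.20 on the DMSO arrays. Vcam1, a ligand of the Itga4 receptor, rose by 0.50, and without both arrays numbered 1 its adjusted p was 0.0583. The fibrillar collagens Col3a1 (0.50) and Col1a1 (0.41) and Ltbp1 (0.45), which holds latent TGF-beta in the matrix, rose and passed in every alternative.

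Npnt, which encodes nephronectin, the basement membrane ligand of the Itga8 receptor, fell by 0.80 (SE 0.051, adjusted p = 3.27e-04 in limma). It read 5.95, 6.13 and 6.10 on the inhibitor arrays, against 6.81, 6.88, 6.91 and 6.83 on the DMSO arrays, and it passed in all 16 alternatives. Fn1, fibronectin, the ligand of the Itga5 receptor, fell by 0.26 (SE 0.037, adjusted p = 0.00839 in limma), to 11.04, 11.12 and 11.07 on the inhibitor arrays, against 11.30, 11.40, 11.36 and 11.28 on the DMSO arrays. The call for Fn1 ended without both arrays numbered 1 (0.0807). Of 7 measured markers of precursors and fibroblasts 3 rose, 42.9% against 8.00% of all genes: Pdgfra (0.89), Pdgfrb (0.50) and Dlk1 (0.32). Thy1 (0.29), Cd34 (0.03), Tagln (-0.00) and Acta2 (-0.15) did not pass. The mean log2 level of these 7 was 7.83 to 7.91 on the inhibitor arrays and 7.54 to 7.63 on the DMSO arrays. Their part in the changes of matrix genes was not tested. The call for Dlk1 held in 8 of 16 alternatives. Without both arrays numbered 1 the adjusted p was 0.0866 for Dlk1 and 0.0906 for Pdgfrb. With the replicate number as a block it was 0.113 for Dlk1.

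Adaptors that link beta tails to actin went both ways. Of 25 measured genes 4 rose, 2 fell and 19 did not pass, 24% against 8.00% of all genes, with a median difference of -0.03. Flna, the actin crosslinker filamin, rose by 0.34 (SE 0.047, adjusted p = 0.0066 in limma), though without both arrays numbered 1 its adjusted p was 0.0878. Tgfb1i1, a focal adhesion protein of the paxillin family also called Hic-5, rose by 0.33 (SE 0.024, adjusted p = 5.1e-04 in limma) and passed in all 16 alternatives. Ptk2b, a kinase related to focal adhesion kinase, rose by 0.26 and passed in 15 of 16. Vcl, vinculin, rose by 0.26 (adjusted p = 0.035 in limma), a call that ended in every fit without a single array (0.0519 to 0.107) and without both arrays numbered 1 (0.131). Zyx, zyxin, fell by 0.23 and Pxn, paxillin, by 0.21. Zyx lost its call without DMSO replicate 4 (0.0548), SCD inhibitor replicate 2 (0.0601) or 3 (0.0602) or both arrays numbered 1 (0.0598), and Pxn in every fit without a single array (0.0645 to 0.162), without both arrays numbered 1 (0.129) and with centring (0.0567). With the replicate number as a block the adjusted p was 0.0508 for Flna, 0.0739 for Ptk2b, 0.0716 for Vcl, 0.0544 for Zyx and 0.0644 for Pxn. Talin and kindlin genes, whose products switch integrins on, did not pass in these examples: Tln1 had 0.05, Tln2 -0.01, Fermt2 -0.10 and the linked kinase Ilk 0.09. For Fermt2 every inhibitor array lay below every DMSO array (adjusted p = 0.0731 in limma), and for Tln1 every one lay above (0.2675). Parvb (-0.38, adjusted p = 0.0661 in limma) and Parvg (-0.37, 0.116) had the widest differences of the 25 genes without passing. Groups did not overlap in 16 of the 25, beside 17.3% of all genes. The inhibitor arrays lay below in 9, beside 9.02% of all genes, and above in 7, beside 8.30%. The list was chosen with earlier results of these data known, so these counts are no test.

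**Figure D4:**
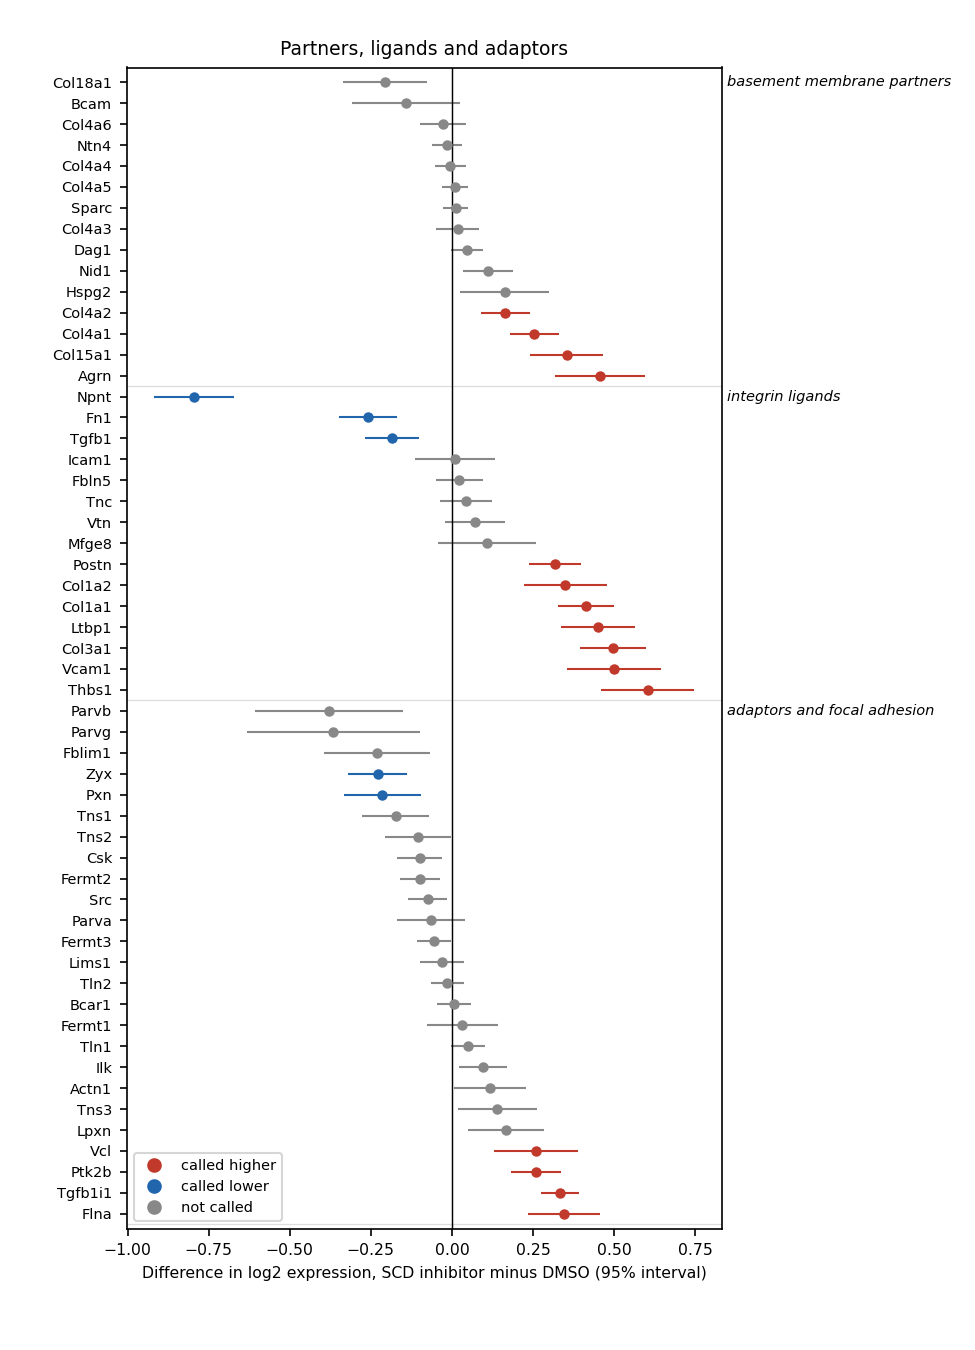
Difference in log2 expression (SCD inhibitor minus DMSO, n = 3 and 4) with 95% intervals for 15 basement membrane partners, 15 integrin ligands other than laminins and 25 adaptor and focal adhesion genes; red, blue and grey mark genes called higher, called lower and not called. Npnt (-0.80) and Thbs1 (0.60) lie at the ends of the ligands. The intervals, which are not adjusted for the number of genes, leave out zero for 10 of the 15 ligands, 19 of the 25 adaptors and 7 of the 15 partners. Among all 18820 genes they leave out zero for 4128.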

How the data were processed

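The deposited values are log2 expression levels made by the authors with RMA, per the submitters' processing notes. Which RMA version was run is not given in the sources used here. RNA (100 ng per sample) was hybridised to Affymetrix whole-transcript arrays, 1 per sample, per the labels' protocols. The values span 2.23 to 13.2. Having only 7 arrays limits precision, and standard errors of the members' differences had a median of 0.0401.

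Of 28996 array rows, 21218 carried 1 gene symbol in the platform annotation, 1881 several and 5897 none listed, and only the first kind was tested. All 39 members matched a RefSeq gene by Entrez number. A model with a term for the inhibitor was fitted to 18820 genes with limma 3.58.1 (lmFit and eBayes) in R 4.3.3, with 5 residual degrees of freedom and Benjamini-Hochberg adjustment over all genes. The fit was checked on simulated data. Members, lists and tests were chosen with earlier results of these data known. Every member is reported, with all array values where its adjusted p was under 0.1, and for a few others chosen after their values were seen. Listed genes outside the family are named where called, at most 6 per list by size, plus others chosen after their values were seen. Neighbouring and overlapping genes in RefSeq were looked up after the values were seen. The alternatives were 16 refits, given in the closing section. Protein sequences were not used here.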

Additional observations from a re-analysis of the deposited data

Results flagged for a closer look

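On 16 of the 39 members, 1 of the 4 DMSO arrays stood apart from the other 3, with a gap to the nearest that exceeded 0.829 of the range of the group, Dixon's 95% limit. Chance gives about 1 such group in 20 for values that vary freely, a rate that does not apply to deposited values that often repeat. By the same limit 28% of all 18820 genes had such a DMSO array, beside 41% of the members, and in 16.6% of all genes the other 3 arrays held the same value. In 7 of them the other 3 arrays held exactly the same value, so that the gap was the whole range (ratio 1): Itga1, Itga11, Itgal, Lama5, Itgb2l, Lama1 and Itgb1bp2. The ratio was 0.97 for Itgae, where DMSO replicate 1 read 4.92 and the others 5.23 to 5.24, and 0.858 for Itgav, where the same array read 8.23 and the others 8.46 to 8.50. It was 0.911 for Itgb1bp1, the only called member among them, where DMSO replicate 4 read 6.82 and the others 6.67 to 6.68. For Itga5 it was 0.857, with DMSO replicate 2 at 9.16 and the others at 9.25 to 9.27. The remaining ratios were 0.929 for Itgb7, 0.9 for Itgb5, 0.852 for Itgax, 0.847 for Lamc3 and 0.833 for Lama4.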

How the results depend on the processing

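Of 16 alternatives, none reversed the sign of a member with an adjusted p under 0.1. The calls of Lamb3 and Itga7 held in all of them, and Itgb2 lost its call in the replicate block alone (adjusted p = 0.0531). The labels do not say whether arrays with the same replicate number were paired. Deviations from the group means correlated at 0.174, 0.138 and 0.0796 for numbers 1, 2 and 3. SCD inhibitor replicates 1 and 3 correlated best with the DMSO array of the same number, and SCD inhibitor replicate 2 with DMSO replicate 4 (0.16). These values do not settle whether the arrays were paired. With the replicate number as a block 896 genes passed, 437 higher and 459 lower, with Itgb1 at an adjusted p of 0.163 and Itgad at 0.0403. Fits without a single array called 949 to 1294 genes (369 to 712 higher, 541 to 643 lower) and 3 to 5 members (1 to 3 higher, 2 lower in each), with a member median of -0.0013 to 0.0195. Centring called 2326 genes, 1296 higher, and a further quantile normalization 1106 higher genes, each with 8 members called, 6 higher. Without both arrays numbered 1, 808 genes passed (434 higher, 374 lower) and the member median was 0.0405. With the dimmest 50% of genes dropped, 16 members remained in the fit, and Itgb2, Itgad and Itga3 were among those dropped. The causes of these shifts were not tested.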

Other observations

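Genes that lie next to the members in RefSeq gene order were read from the same fit. Around the 8 members with an adjusted p under 0.1 there were 14 adjacent measured genes, of which 1 was called higher, 3 were called lower and 10 were not called. Of all genes 8.00% were called, and the shares were not compared by a test. Itgax, itself a member, is among the 14. G0s2, an inhibitor of adipose triglyceride lipase, lies beside Lamb3 and fell with it, to 9.35, 9.37 and 9.36 on the inhibitor arrays, against 9.81, 9.83, 9.84 and 9.83 on the DMSO arrays (log2 -0.46, SE 0.017, adjusted p = 3.66e-05 in limma). Camk1g, on the other side of Lamb3, had a difference of -0.05 and did not pass. Nrp1, a coreceptor of vascular growth factors, lies beside Itgb1 and rose with it, at 10.00, 10.07 and 10.02 on the inhibitor arrays, against 9.66, 9.56, 9.60 and 9.58 on the DMSO arrays (log2 0.43, SE 0.031, adjusted p = 4.71e-04 in limma). Both neighbours passed in all 16 alternatives. The remaining called neighbours, Mettl7b and Cox6a2, overlap Itga7 and Itgad and are described above. The share of neighbours that move together over the genome was not computed.

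Many deposited values repeat exactly from array to array. For 23 of the 39 members (59%) at least 3 of the 7 arrays held the same value, beside 54.6% of all genes, and for Itga1, Itgal, Lama3 and Itgb1bp2 it was 5 arrays. Of the 5 called members 0 had a value repeated on 3 or more arrays, and of the 1505 called genes 1 had. Standard errors and intervals of genes with repeated values, Itgb5, Lama4, Lamc1 and Itga6 among them, rest on fewer distinct readings than arrays. Array rows that carry a member's symbol beside another gene's had small differences with overlapping groups: 0.0082 for the row of Itgb4, -0.082 for that of Itgb1bp1 and 0.025 for that of Itga4.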
